A study of Rattus norvegicus with 12 samples.

Results

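A set of 10 genes of the machinery that carries a cell from G1 into S phase was followed in rat nucleus pulposus cells, taken from the table by gene name. They are the D cyclins Ccnd1, Ccnd2 and Ccnd3, the E cyclins Ccne1 and Ccne2, the kinases Cdk2, Cdk4 and Cdk6, the pocket protein gene Rb1 and the kinase inhibitor gene Cdkn2c. All 10 were among the 21071 genes of the deposited table, and all 10 were among the 15650 genes with enough counts to be tested. The cells, cultured from the intervertebral disc of Rattus norvegicus, were profiled by RNA sequencing in 12 libraries, 3 in each of 4 groups. Every group received exosomes, small vesicles released by cells, at 50 µg/mL. The source was progenitor cells of the nucleus pulposus, either plain (NPPC-Exo) or overexpressing miR-221-3p (miR-Exo). Both kinds were also given to cells exposed to erastin, an inhibitor of the cystine importer that triggers ferroptosis, at 0.1 to 5 µM for 48 h with no dose stated for a single library. No group went without exosomes, so the exosomes themselves have no control here. The erastin libraries carry the word Erastin in their titles and Model in their descriptions. No age, sex or strain of the animals and no source of separate cultures is stated, and p-values therefore measure only how far libraries scatter, which may be technical. The mature miRNA whose excess defines the miR-Exo groups is given 5′ to 3′ as RefSeq gives it for the rat (GRCr8), with its seed, bases 2 to 8, in capitals.
rno-miR-221-3p: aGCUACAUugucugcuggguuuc

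In G1, D cyclins bind Cdk4 and Cdk6 and begin the phosphorylation of the retinoblastoma protein, which otherwise holds back E2F transcription factors. E cyclins, themselves E2F targets, then bind Cdk2, which completes that phosphorylation and starts DNA replication. Inhibitors of the INK4 class, to which the product of Cdkn2c belongs, block Cdk4 and Cdk6, and those of the CIP/KIP class act mainly on Cdk2. Cells of the nucleus pulposus divide little in the intact disc and resume division in culture. The human counterpart of Cdkn1b, a CIP/KIP inhibitor, is a well-known target of miR-221, and need not be the only one of its class. With miR-Exo, Cdkn1b was lower and Cdkn1c, of the same class, was higher, as given below. Whether the miRNA targets any gene named here was not tested.

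Library totals ran from 54616827 to 68865720 counts. Levels are given in CPM, counts divided by the library total after scaling for composition, and levels of different genes are compared only in FPKM, which also divides by gene length. Replicate 1 of NPPC-Exo and replicate 1 of miR-Exo stood apart from their groups along the leading component of within-group variation, which held 31% of it. Of the 10 genes, Ccnd3 followed this component most, at percentile 96.5 of 10162 genes, so its results without these libraries are given beside it. Summed markers of nucleus pulposus, 8 of 11 listed, lay at 7100 to 8130 CPM with NPPC-Exo and 7090 to 8580 CPM with miR-Exo, mostly Acan. With erastin the same sum was 1110 to 1260 CPM under NPPC-Exo and 851 to 919 CPM under miR-Exo. Not every marker followed its sum: Cd24 had group means of 8.82 and 15.9 CPM without and with erastin under NPPC-Exo, and 12.7 and 21.3 CPM under miR-Exo. The keratin marker Krt18 was near or at 0 in all groups, at no more than 0.237 CPM. Summed annulus or fibroblast markers, 5 of 6 listed and mostly Col1a1, lay at 24900 to 34000 CPM with NPPC-Exo and at 12400 to 15300 CPM once erastin was added. Under miR-Exo they lay at 27300 to 36400 CPM without erastin and at 6660 to 9150 CPM with it, while Pdgfra of that list had means of 103 and 130 CPM under NPPC-Exo and 81.9 and 171 CPM under miR-Exo. Summed leukocyte markers, 6 of 8 listed and mostly Cd14, lay at 7.45 to 9.15 CPM without and 12.8 to 17.5 CPM with erastin under NPPC-Exo. Under miR-Exo these were 9.73 to 11.2 CPM and 22.2 to 29.5 CPM. There Itgam had means of 0.79 and 0.0514 CPM without and with erastin, and Lyz2 0.297 and 0.185 CPM. Cd14 and Cd68 were higher with erastin, and Aif1 and Cd79a were at or near 0. Endothelial markers, 3 of 5 listed, summed to at most 1.11 CPM. Erythroid markers, of which Alas2 alone of 4 listed was in the table, reached at most 0.143 CPM. The part of these marker shifts in the results below was not tested. These are bulk libraries, in which a change in the number of cells of a type and a change in RNA per cell cannot be told apart.

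With erastin, both E cyclins and their partner Cdk2 rose, D cyclins moved in different directions, and the rises of Ccne1, Ccne2 and Cdk2 were larger under miR-Exo than under NPPC-Exo. A gene is said to rise, fall or change where the adjusted p of edgeR's quasi-likelihood test was under 0.05. Under NPPC-Exo erastin raised 7 of the 10 genes and lowered 2, against a background of 43.6% of all genes tested that changed (21.5% higher and 22.1% lower). The median log2 fold change of the 10 was 0.702, against 0.0175 over all genes. Under miR-Exo 6 genes rose and 4 fell, against a background of 49.1% (24.7% higher and 24.4% lower), with a median of 0.428 against 0.0287. Between the kinds of exosome without erastin, 2 genes were lower with miR-Exo and 0 were higher, a share of the 10 that was not far above the background of 10.7% (4.15% higher and 6.52% lower). At an unadjusted p under 0.05, 4 were higher and 2 lower, and DESeq2 called 2 higher and 2 lower. Of all DESeq2 calls in this comparison, 41.7% were higher. The background of 10.7% is that of the adjusted quasi-likelihood test, so neither of these counts can be set against it. The quasi-likelihood count was 1 without replicate 1 of miR-Exo, 4 without replicate 3 of NPPC-Exo and 3 in a fit with the replicate number as a block. With erastin, 4 genes were higher and 2 lower under miR-Exo, against a background of 31.3% (15.6% higher and 15.8% lower). The erastin effect itself differed between the kinds of exosome, tested as an interaction, for 6 of the 10, with 3 differences in each direction, against a background of 12.8% (5.81% higher and 7.01% lower).

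**Figure D1:**
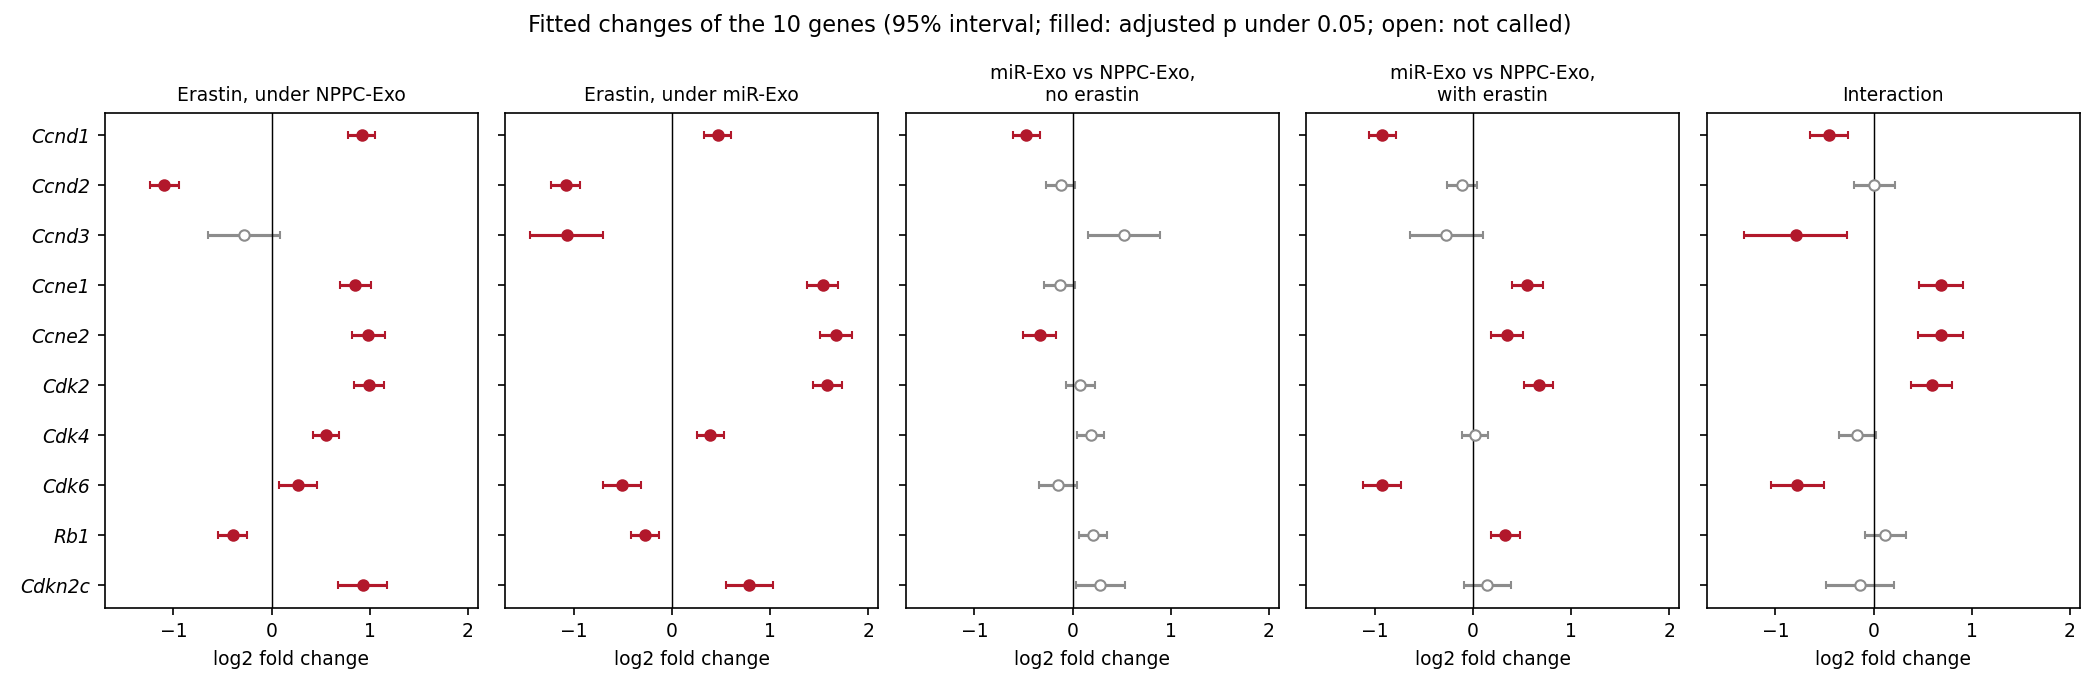
Fitted log2 fold changes of the 10 genes (x axis) in the 4 comparisons of groups and for the interaction, with 95% intervals, filled where the adjusted p was under 0.05. Ccne1, Ccne2 and Cdk2 lie to the right of 0 in both erastin panels and in the interaction panel, while Ccnd1 and Cdk6 lie to the left of 0 in the interaction panel.

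Among the D cyclins, Ccnd1, the member most closely tied to growth factor signals, was at 241, 272 and 258 CPM with NPPC-Exo and at 182, 192 and 181 CPM with miR-Exo. With erastin it was at 444, 519 and 492 CPM under NPPC-Exo and at 248, 250.2 and 268.5 CPM under miR-Exo. No library of one group overlapped another group in any of the 4 comparisons, and the libraries with erastin and miR-Exo lay within the range of those given NPPC-Exo alone. Erastin raised Ccnd1 by a log2 fold change of 0.92 ± 0.06 (SE, n = 3 per group, adjusted p = 7.51e-08) under NPPC-Exo. The rise under miR-Exo was 0.47 ± 0.06 (adjusted p = 4.33e-05), and the difference of the rises was -0.45 ± 0.09 (adjusted p = 0.00717). Ccnd1 was lower with miR-Exo than with NPPC-Exo in both settings: the log2 fold change was -0.47 ± 0.06 in the absence of erastin (adjusted p = 5.04e-04) and -0.92 ± 0.06 in its presence (adjusted p = 4.8e-07).

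Ccnd2, another D cyclin, was at 80.0, 73.4 and 78.9 CPM with NPPC-Exo and at 69.5, 67.2 and 76.8 CPM with miR-Exo. The erastin libraries were at 35.9, 34.8 and 38.3 CPM under NPPC-Exo and at 34.9, 31.6 and 34.3 CPM under miR-Exo. All 6 erastin libraries lay below all 6 others, whichever exosome the cells had received. Ccnd2 fell by 1.09 ± 0.07 on the log2 scale under NPPC-Exo (adjusted p = 3.01e-08) and by 1.08 ± 0.07 under miR-Exo (adjusted p = 2.78e-08). The difference of the falls was 0.01, with a 95% interval of -0.20 to 0.22 (adjusted p = 0.98).

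Ccnd3, the third D cyclin, was at 100.7, 60.2 and 61.2 CPM with NPPC-Exo and at 118, 107 and 93.9 CPM with miR-Exo. In the presence of erastin it was at 51.0, 63.9 and 68.1 CPM under NPPC-Exo and at 52.1, 50.3 and 49.2 CPM under miR-Exo. Replicate 1 of NPPC-Exo sat above its group, within the range of the miR-Exo libraries, and the erastin libraries overlapped the others only under NPPC-Exo. Under miR-Exo the fall was 1.07 ± 0.17 (adjusted p = 1.74e-04), and the value was -0.99 (adjusted p = 0.00101) without replicate 1 of miR-Exo. Under NPPC-Exo the log2 fold change of -0.28 ± 0.17 did not pass the test (adjusted p = 0.214, 95% interval -0.65 to 0.09), and it was 0.01 (adjusted p = 0.972) without replicate 1 of NPPC-Exo. Between the kinds of exosome without erastin the value was 0.52 ± 0.17 (adjusted p = 0.071), or 0.44 (adjusted p = 0.206) without replicate 1 of miR-Exo. It passed at 0.81 (adjusted p = 0.00119) without replicate 1 of NPPC-Exo, at 0.60 (adjusted p = 0.0376) with counts scaled by library size alone, and at 0.57 (adjusted p = 0.0214) in a fit of these groups with the replicate block. The difference of the erastin effects was -0.79 ± 0.24 (adjusted p = 0.0479). With the replicate block it was -0.82 (adjusted p = 0.0513), and with library size alone -0.77 (adjusted p = 0.0515). The call was also lost when any of 9 single libraries, replicate 1 of miR-Exo among them, was left out, with adjusted p from 0.0717 to 0.113; it held without replicate 1 of NPPC-Exo (adjusted p = 0.00096), replicate 3 of miR-Exo (0.0467) or replicate 1 of erastin with NPPC-Exo (0.035).

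**Figure D2:**
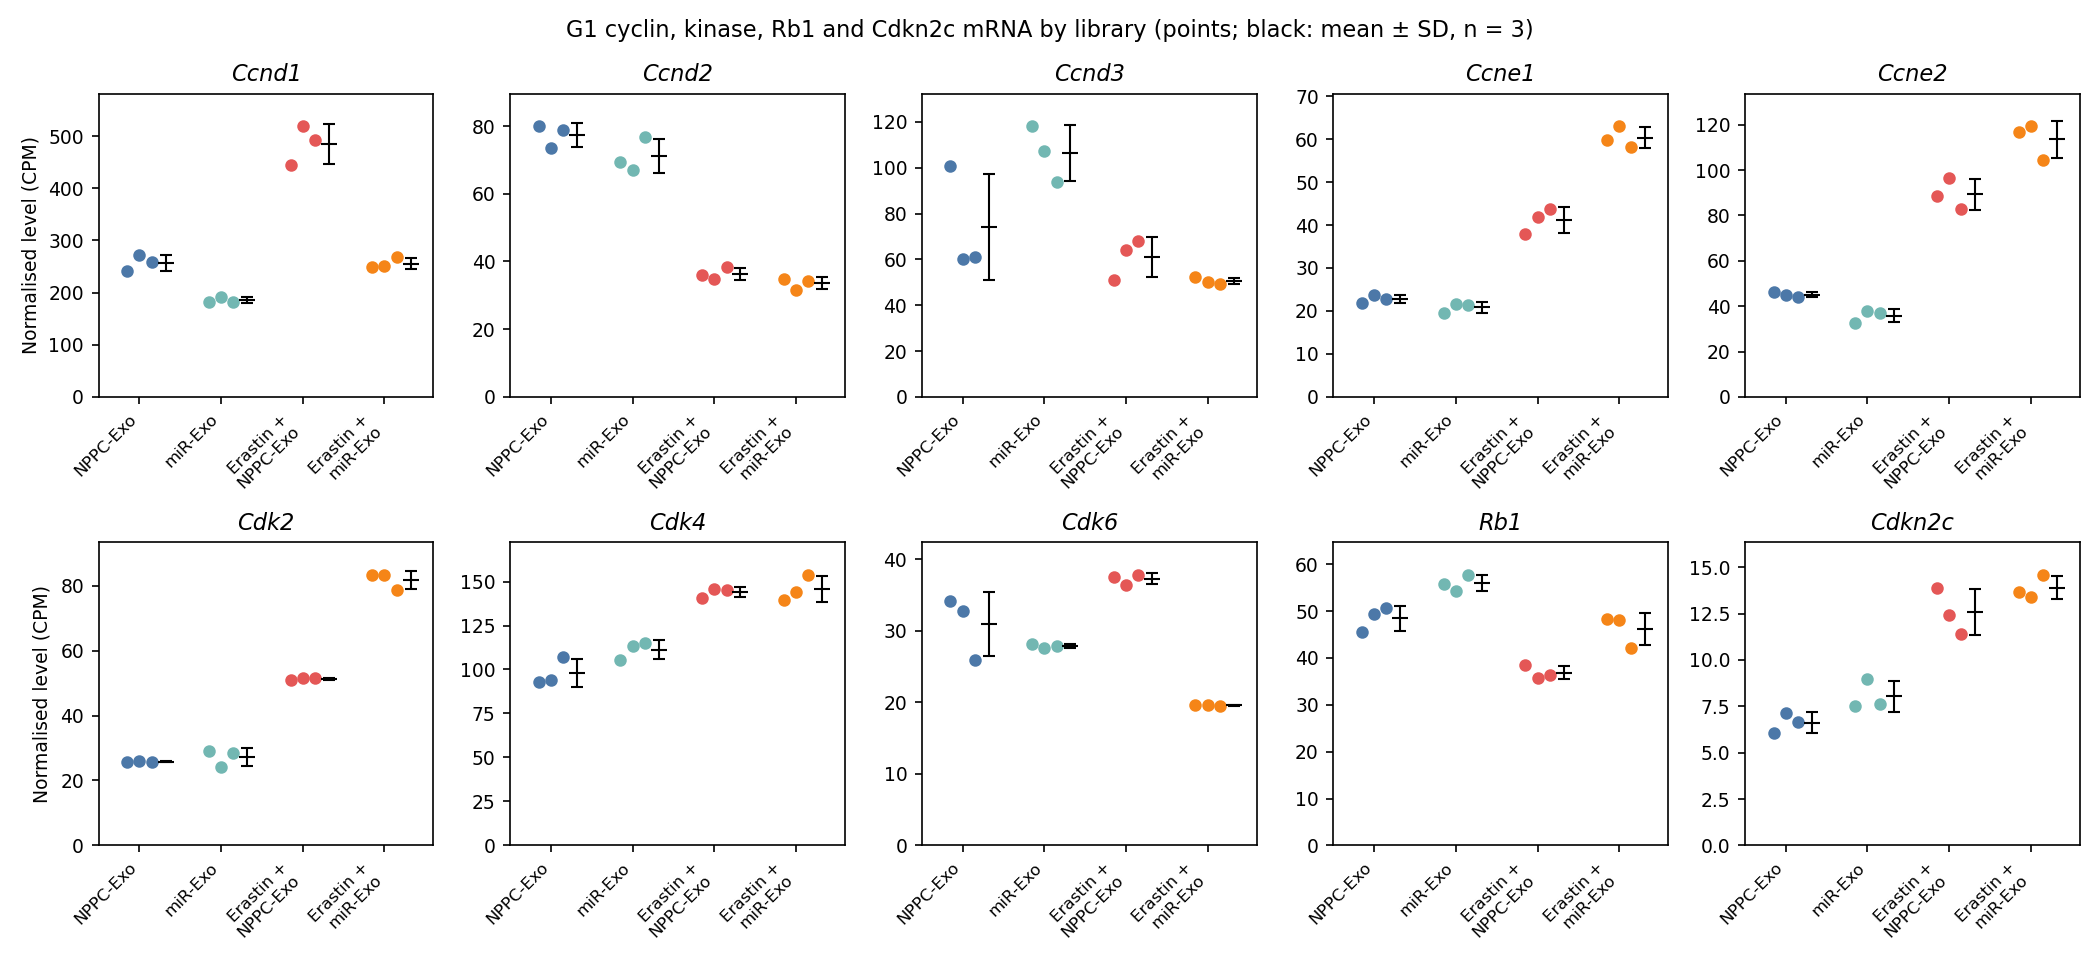
Normalised level in CPM (y axis, from 0, a separate scale for each gene) of the 10 genes in each library, by group, with the mean and SD of 3 libraries in black. Ccnd2 is low in all 6 erastin libraries, Cdk2 steps up from 24.1 to 29.2 CPM without erastin to 51.0 to 51.6 and 78.6 to 83.5 CPM with it, and replicate 1 of NPPC-Exo stands above its group for Ccnd3.

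Of the D-cyclin kinases, Cdk4 was at 92.8, 94.2 and 107 CPM with NPPC-Exo and at 105, 114 and 115 CPM with miR-Exo. The erastin libraries were at 140.5, 146 and 145 CPM under NPPC-Exo and at 139.5, 144 and 154 CPM under miR-Exo. The erastin libraries were above the others in both settings, and those of the different kinds of exosome overlapped. Cdk4 rose with erastin by 0.55 ± 0.06 (adjusted p = 8.69e-06) under NPPC-Exo and by 0.39 ± 0.06 (adjusted p = 1.86e-04) under miR-Exo. The difference of the rises did not pass the test, with a 95% interval of -0.36 to 0.03 (adjusted p = 0.253). Without erastin the value for miR-Exo against NPPC-Exo was 0.18 ± 0.06 (adjusted p = 0.0853). It passed in the fit with the replicate block at 0.19 (adjusted p = 0.0394) and without replicate 3 of NPPC-Exo at 0.25 (adjusted p = 0.0238). Cdk4 overlaps Tspan31 on the opposite strand in the table, which had 70573 counts over all libraries against 92911 for Cdk4. The library kit marks strand, but the strand setting of the counting is not given in the sources used here, so reads shared between the pair cannot be told apart.

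Cdk6, the other D-cyclin kinase, was at 34.2, 32.8 and 25.9 CPM with NPPC-Exo and at 28.2, 27.5 and 27.9 CPM with miR-Exo. With erastin it was at 37.6, 36.5 and 37.9 CPM under NPPC-Exo and at 19.7, 19.6 and 19.5 CPM under miR-Exo. The libraries with erastin and miR-Exo were the lowest of the 12, and those with erastin and NPPC-Exo were the highest. Erastin lowered Cdk6 under miR-Exo by 0.51 ± 0.09 on the log2 scale (adjusted p = 3.76e-04), a fall that was -0.20 and missed the threshold (adjusted p = 0.0684) with counts scaled by library size alone. Under NPPC-Exo Cdk6 rose by 0.27 ± 0.09 (adjusted p = 0.025), a call lost without replicate 3 of NPPC-Exo (0.15, adjusted p = 0.0811) or replicate 3 of erastin with NPPC-Exo (0.27, adjusted p = 0.0596). The difference of these effects was -0.78 ± 0.13 (adjusted p = 0.00235). With erastin, Cdk6 was lower under miR-Exo than under NPPC-Exo by a log2 fold change of -0.93 ± 0.09 (adjusted p = 8.08e-06). Without erastin the value was -0.15 (95% interval -0.34 to 0.04, adjusted p = 0.323) and passed at -0.26 (adjusted p = 0.0279) once replicate 3 of NPPC-Exo was left out.

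The E cyclins moved the other way from Cdk6 under miR-Exo. Ccne1 was at 21.9, 23.8 and 22.8 CPM with NPPC-Exo and at 19.5, 21.6 and 21.4 CPM with miR-Exo. With erastin it was at 37.9, 41.8 and 43.8 CPM under NPPC-Exo and at 59.7, 63.1 and 58.3 CPM under miR-Exo. The 4 groups did not overlap, and their order turned around between the settings: miR-Exo libraries were the lower ones without erastin and the higher ones with it. Ccne1 rose with erastin by 0.85 ± 0.07 under NPPC-Exo (adjusted p = 5.84e-07) and by 1.53 ± 0.07 under miR-Exo (adjusted p = 1.81e-09). The difference of the rises was 0.68 ± 0.10 (adjusted p = 0.00156). Between the kinds of exosome the value was -0.13 without erastin (95% interval -0.29 to 0.03, adjusted p = 0.288) and 0.55 ± 0.07 with it (adjusted p = 8.93e-05).

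Ccne2 was at 46.2, 44.9 and 44.2 CPM with NPPC-Exo and at 32.4, 37.8 and 36.8 CPM with miR-Exo. In the presence of erastin it was at 88.5, 96.6 and 82.9 CPM under NPPC-Exo and at 117, 119 and 104 CPM under miR-Exo. Here too the groups did not overlap and the order of the kinds of exosome was reversed between the settings. The rises with erastin were 0.99 ± 0.08 under NPPC-Exo (adjusted p = 2.15e-07) and 1.67 ± 0.08 under miR-Exo (adjusted p = 1.29e-09), a difference of 0.68 ± 0.11 (adjusted p = 0.00194). Ccne2 was lower with miR-Exo than with NPPC-Exo without erastin (-0.34 ± 0.08, adjusted p = 0.014) and higher with erastin (0.35 ± 0.08, adjusted p = 0.00362). The first of these calls was lost without replicate 1 of miR-Exo (-0.27, adjusted p = 0.0593) and with counts scaled by library size alone (-0.25, adjusted p = 0.0614). Ccne2 overlaps Ints8 on the opposite strand, with 40066 counts against 53742 for Ccne2, so the reservation given for Cdk4 applies here.

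Cdk2, the kinase that E cyclins activate, was at 25.8, 26.1 and 25.6 CPM with NPPC-Exo and at 29.2, 24.1 and 28.6 CPM with miR-Exo. With erastin it was at 51.0, 51.6 and 51.6 CPM under NPPC-Exo and at 83.3, 83.5 and 78.6 CPM under miR-Exo. The kinds of exosome overlapped without erastin and were far apart with it. Cdk2 rose with erastin by 0.99 ± 0.07 under NPPC-Exo (adjusted p = 8.21e-08) and by 1.58 ± 0.07 under miR-Exo (adjusted p = 7.81e-10). The difference of the rises was 0.59 ± 0.10 (adjusted p = 0.00264). With erastin, Cdk2 was higher under miR-Exo by 0.67 ± 0.07 (adjusted p = 1.3e-05), while without erastin the value was 0.08 (95% interval -0.07 to 0.23, adjusted p = 0.528).

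The promoters of Ccne1 and Cdk2 are shown because these genes rose together, and that of Cdk4 because it held a motif the others lacked. Each line gives the 250 bases before the start of the gene, 5′ to 3′ on the strand of the gene, from RefSeq (GRCr8). Capitals mark the GC box (GGGCGG, or CCGCCC where it lies on the other strand) in the first pair and the E-box (CACGTG) in Cdk4.
Ccne1 promoter, chr1:99927910-99928159, minus strand: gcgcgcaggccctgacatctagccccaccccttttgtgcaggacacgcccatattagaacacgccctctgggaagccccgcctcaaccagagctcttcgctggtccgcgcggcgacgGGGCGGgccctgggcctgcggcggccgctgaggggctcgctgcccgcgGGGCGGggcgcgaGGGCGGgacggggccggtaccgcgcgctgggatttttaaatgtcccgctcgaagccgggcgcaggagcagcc
Cdk2 promoter, chr7:1721879-1722128, minus strand: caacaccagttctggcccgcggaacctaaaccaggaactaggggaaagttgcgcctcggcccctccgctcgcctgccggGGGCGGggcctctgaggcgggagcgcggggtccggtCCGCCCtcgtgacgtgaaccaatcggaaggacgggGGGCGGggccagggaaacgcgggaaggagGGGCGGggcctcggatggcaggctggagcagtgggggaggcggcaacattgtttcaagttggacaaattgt
Cdk4 promoter, chr7:64771203-64771452, plus strand: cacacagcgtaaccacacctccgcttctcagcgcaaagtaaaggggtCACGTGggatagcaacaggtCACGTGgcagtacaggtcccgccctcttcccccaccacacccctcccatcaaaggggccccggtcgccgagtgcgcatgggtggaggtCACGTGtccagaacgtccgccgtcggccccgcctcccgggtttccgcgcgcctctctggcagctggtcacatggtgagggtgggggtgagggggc

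Of the 10 genes, 6 matched a RefSeq promoter entry: Ccnd3, Ccne1, Cdk2, Cdk4, Rb1 and Cdkn2c. Motifs were searched on both strands from 250 bases before to 50 bases after the start. All 6 held GGGCGG, which 33.1% of 33469 promoters of that length held, and all 6 held the short E2F core TCCCGC, against 18.7%. The E-box CACGTG was present in 1 of 6, Cdk4, against 6.42%. The full E2F forms TTTCGCGC and TTTGGCGC were in 0 of 6 against 0.792%, the AP-1 forms TGAGTCA and TGACTCA in 0 of 6 against 4.63%, and the cell cycle element TTTGAA in 0 of 6 against 18.3%. The E-box, GC box and short core were chosen after the sequences had been seen, the GC box and the core can share bases, and the GC content of the 6 was 65.3% to 79.7% against a median of 51.7%. A match is a description of these letters and no evidence of binding.

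Rb1, which encodes the pocket protein that these kinases phosphorylate, was at 45.5, 49.3 and 50.6 CPM with NPPC-Exo and at 55.8, 54.4 and 57.8 CPM with miR-Exo. With erastin it was at 38.5, 35.8 and 36.4 CPM under NPPC-Exo and at 48.3, 48.1 and 42.2 CPM under miR-Exo. Erastin libraries lay below the others in each setting, and miR-Exo libraries lay above NPPC-Exo libraries in each setting. Rb1 fell with erastin by 0.39 ± 0.07 under NPPC-Exo (adjusted p = 3.49e-04) and by 0.28 ± 0.07 under miR-Exo (adjusted p = 0.00416). These falls depend on the scaling of the libraries: with library size alone the values were -0.11 (adjusted p = 0.184) and 0.03 (adjusted p = 0.738). Rb1 was higher with miR-Exo than with NPPC-Exo with erastin, by 0.33 ± 0.07 (adjusted p = 0.00281). Without erastin the value was 0.21 ± 0.07 (adjusted p = 0.071) and passed without replicate 3 of erastin with miR-Exo (0.22, adjusted p = 0.0312). The difference of the erastin effects was 0.12 (adjusted p = 0.471). Rb1 overlaps Lpar6 on the opposite strand, with 6426 counts against 34356 for Rb1.

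Cdkn2c, the INK4 inhibitor gene, was the lowest of the 10 in FPKM in every group. Its level ranged from 6.04 to 7.15 CPM with NPPC-Exo and from 7.50 to 9.00 CPM with miR-Exo. With erastin it ranged from 11.4 to 13.9 CPM under NPPC-Exo and from 13.4 to 14.6 CPM under miR-Exo. All 6 erastin libraries were above all 6 others. Cdkn2c rose with erastin by 0.93 ± 0.11 under NPPC-Exo (adjusted p = 1.76e-05) and by 0.79 ± 0.11 under miR-Exo (adjusted p = 6.4e-05), so an inhibitor of Cdk4 and Cdk6 rose beside Cdk4 itself. Differences between the kinds of exosome did not pass the test without erastin (0.28 ± 0.11, adjusted p = 0.14) or with it (95% interval -0.10 to 0.39, adjusted p = 0.364).

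Per length, in FPKM, Cdk4 was the most abundant of the 10 in every group, from 90.4 ± 7.30 (SD, n = 3) with NPPC-Exo to 174.8 with erastin and miR-Exo. In cells given NPPC-Exo, Ccnd1 followed at 55.7 FPKM, then Ccnd2 at 46.1 and Ccnd3 at 32.6, whose ranges overlapped. Cdk6 at 17.4 FPKM stood above Rb1 at 13.0 and Ccne2 at 12.5, which overlapped, and above Cdk2 at 9.92 and Ccne1 at 9.83, which also overlapped. With miR-Exo the ranges of the D cyclins overlapped, at 49.5 FPKM for Ccnd3, 44.7 for Ccnd2 and 42.5 for Ccnd1. Within each of these libraries, Ccnd3 was above Ccnd1. With erastin and NPPC-Exo, Ccnd1 at 128 FPKM stood well above Ccnd3 at 32.6 and Ccne2 at 30.1, whose ranges overlapped. With erastin and miR-Exo, Ccne2 at 41.0 and Cdk2 at 40.8 overlapped and came next after Ccnd1 at 72.1 FPKM, while Cdk6 at 14.3 ranked below Rb1 at 16.2. Cdk6 thus went from above Cdk2 and both E cyclins to below all of them.

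Shares within a library do not depend on how libraries are scaled. Ccnd1 made up 41.7% ± 4.88 (SD, n = 3) of the summed D-cyclin FPKM with NPPC-Exo and 31.1% ± 1.32 with miR-Exo. With erastin its share was 68.5% ± 1.45 under NPPC-Exo and 56.8% ± 1.45 under miR-Exo. Groups did not overlap in any of the 4 comparisons of this share. The differences with erastin were 26.8 points under NPPC-Exo and 25.7 points under miR-Exo, each with an exact two-sided permutation p of 0.1, the smallest that 3 against 3 libraries allow (0.126 adjusted over 24 tests). Ccnd2 went from 34.3% ± 1.63 to 14.1% ± 1.23 with erastin under NPPC-Exo, and from 32.8% ± 2.95 to 20.4% ± 0.776 under miR-Exo. The summed D-cyclin FPKM was 134.4 ± 8.00 with NPPC-Exo and 186.5 ± 15.8 once erastin was added, against 137 ± 3.48 and 127.0 ± 2.80 under miR-Exo. Unlike the shares, these sums depend on the scaling of libraries. Divided by the scaling factors used for CPM, a step added after the data were seen, they were 153 ± 9.08 and 174.6 ± 14.7 under NPPC-Exo, with overlapping ranges, and 147 ± 3.11 and 110.6 ± 2.49 under miR-Exo. With erastin the sum was lower under miR-Exo than under NPPC-Exo on both scales, with no overlap.

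**Figure D3:**
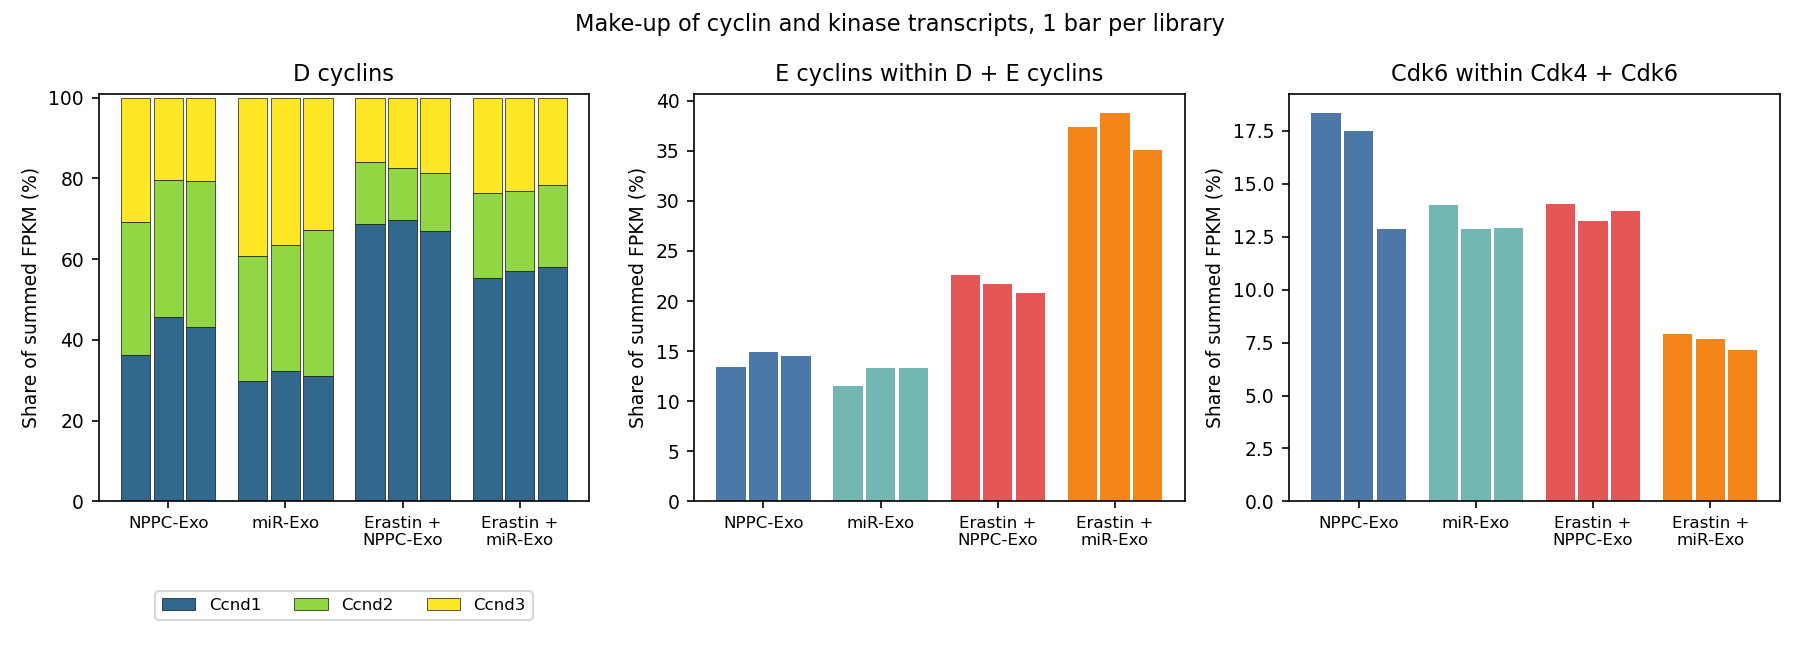
Share of summed FPKM in percent (y axis, from 0) in each of 12 libraries: Ccnd1, Ccnd2 and Ccnd3 within D cyclins (left), E cyclins within D and E cyclins (middle) and Cdk6 within Cdk4 and Cdk6 (right). The E-cyclin share is highest, and the Cdk6 share lowest, in the 3 libraries with erastin and miR-Exo.

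E cyclins made up 14.3% ± 0.821 of the summed D and E cyclin FPKM with NPPC-Exo and 12.7% ± 1.02 with miR-Exo, a share computed after the other values were seen. With erastin this share was 21.7% ± 0.903 under NPPC-Exo and 37.1% ± 1.88 under miR-Exo. Groups did not overlap in any of the 4 comparisons, each with an exact permutation p of 0.1, the smallest possible. Without erastin they all but met, with the lowest NPPC-Exo library at 13.37% and the highest miR-Exo library at 13.34%. Within the E cyclins, Ccne1 held 43.9% ± 1.40 with NPPC-Exo, 47.5% ± 0.645 with miR-Exo, 41.7% ± 2.89 with erastin and NPPC-Exo and 45.2% ± 1.09 with erastin and miR-Exo. Cdk6 held 16.2% ± 2.95 of the summed Cdk4 and Cdk6 FPKM with NPPC-Exo and 13.3% ± 0.651 with miR-Exo. Its share was 13.7% ± 0.397 with erastin and NPPC-Exo and 7.59% ± 0.380 with erastin and miR-Exo, the lowest group, with no overlap with the other erastin group (exact permutation p = 0.1). The exact permutation p for Cdk6 was 0.4 both for erastin under NPPC-Exo and for the kinds of exosome without erastin, where groups overlapped.

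Of the other inhibitors of cyclin-dependent kinases, 5 were tested of 6 listed. With erastin 3 of 5 rose and 0 fell under NPPC-Exo, with the same counts at an unadjusted p under 0.05 and by DESeq2 and limma. Of all genes tested, 43.6% changed there by edgeR (21.5% higher and 22.1% lower). Under miR-Exo 2 rose and 2 fell against a background of 49.1% (24.7% higher and 24.4% lower), or 2 and 1 by limma. Of all limma calls, 77.6% under NPPC-Exo and 76.3% under miR-Exo were higher. The median log2 fold changes of the 5 were 0.85 under NPPC-Exo and -0.798 under miR-Exo. Cdkn1b, which encodes p27, was at 50.3, 34.4 and 34.7 CPM with NPPC-Exo and at 27.6, 23.8 and 25.0 CPM with miR-Exo. Erastin libraries had levels of 46.1, 54.5 and 51.3 CPM under NPPC-Exo and 16.2, 13.7 and 14.1 CPM under miR-Exo. The miR-Exo libraries were the lower ones in both settings and did not overlap NPPC-Exo libraries. Cdkn1b was lower with miR-Exo, at -0.64 ± 0.13 on the log2 scale without erastin (adjusted p = 0.00868) and -1.79 ± 0.14 in its presence (adjusted p = 1.26e-06). Its fall with erastin under miR-Exo was 0.80 ± 0.14 (adjusted p = 2.95e-04), and the difference of the erastin effects was -1.15 ± 0.19 (adjusted p = 0.00277). Under NPPC-Exo the value of 0.35 ± 0.13 lay at the threshold (adjusted p = 0.04998) with overlapping groups, and the call was lost when any of 9 single libraries was left out, with adjusted p from 0.0503 to 0.192; replicate 1 of each of NPPC-Exo, erastin with NPPC-Exo and erastin with miR-Exo was not among the 9.

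Cdkn1c, which encodes p57 and is another CIP/KIP inhibitor, was higher with miR-Exo where Cdkn1b was lower. At 0.433 to 1.05 CPM with NPPC-Exo its level rested on few counts, and it ranged from 1.72 to 1.83 CPM with miR-Exo. With erastin it ranged from 1.71 to 2.06 CPM under NPPC-Exo and from 3.35 to 4.08 CPM under miR-Exo, so the kinds of exosome did not overlap in either setting. Cdkn1c was higher with miR-Exo by 1.35 ± 0.28 without erastin (adjusted p = 0.00779) and by 1.00 ± 0.26 with it (adjusted p = 0.0102). In a fit of the groups without erastin alone, with the replicate block, the first value was 1.44 (adjusted p = 0.0545). It rose with erastin by 1.44 ± 0.28 under NPPC-Exo (adjusted p = 8.04e-04) and by 1.09 ± 0.26 under miR-Exo (adjusted p = 0.00345).

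Cdkn1a, the p21 gene that p53 switches on, was at 253, 136 and 137 CPM with NPPC-Exo and at 476, 286 and 209.5 CPM with miR-Exo. Erastin libraries had levels of 188, 241 and 265 CPM under NPPC-Exo and 176.5, 161 and 209.8 CPM under miR-Exo. Replicate 1 was the highest library of both groups without erastin, and these are the libraries that stand apart. Cdkn1a fell with erastin under miR-Exo by 0.83 ± 0.28 (adjusted p = 0.027), a call lost without replicate 1 of miR-Exo (-0.44, adjusted p = 0.175), or replicate 1 or 2 of erastin with miR-Exo (adjusted p of 0.0742 and 0.0869), or with library size alone (-0.52, adjusted p = 0.127). Without erastin its value for miR-Exo against NPPC-Exo was 0.89 ± 0.28 (adjusted p = 0.0657), which passed in a fit of these groups with the replicate block at 0.88 (adjusted p = 0.00171). Of the INK4 genes, Cdkn2b was at 12.6, 14.3 and 11.7 CPM with NPPC-Exo and at 2.24, 2.58 and 7.53 CPM with miR-Exo. Erastin libraries were at 5.50, 30.9 and 32.9 CPM under NPPC-Exo and at 23.6, 24.1 and 23.9 CPM under miR-Exo. Replicate 3 of miR-Exo was high in its group, and replicate 1 of erastin with NPPC-Exo was low in its group. Cdkn2b rose with erastin under miR-Exo by 2.53 ± 0.55 (adjusted p = 0.00188), or 3.31 (adjusted p = 6.5e-04) without replicate 3 of miR-Exo. Under NPPC-Exo its value was 0.85 ± 0.52 (adjusted p = 0.21) and passed at 1.33 (adjusted p = 0.00916) without replicate 1 of erastin with NPPC-Exo. For miR-Exo against NPPC-Exo without erastin the Cdkn2b value was -1.63 ± 0.54 (adjusted p = 0.0773) and passed with the replicate block at -1.80 (adjusted p = 0.0483). It also passed without replicate 3 of miR-Exo (-2.41, adjusted p = 0.0257) or replicate 1 of erastin with NPPC-Exo (-1.63, adjusted p = 0.0107). Cdkn2a, at no more than 3.11 CPM in any library, rose with erastin under NPPC-Exo by 1.55 ± 0.51 (adjusted p = 0.0255) and with erastin was lower under miR-Exo by a log2 fold change of -1.86 ± 0.52 (adjusted p = 0.0152). The Cdkn2a rise was lost without replicate 2 or 3 of NPPC-Exo or replicate 1 or 3 of erastin with NPPC-Exo (adjusted p from 0.0566 to 0.0951), and the lower level without replicate 1 or 2 of erastin with miR-Exo (adjusted p of 0.0598 and 0.0577).

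Among pocket proteins, E2F factors and their DP partners, 11 tested of 12 listed, 7 rose and 1 fell with erastin under each kind of exosome, with medians of 0.306 and 0.427. Of all genes tested, 21.5% rose and 22.1% fell under NPPC-Exo, and 24.7% and 24.4% under miR-Exo. Rbl1, which encodes the pocket protein p107, rose by 0.69 ± 0.09 under NPPC-Exo (adjusted p = 2.83e-05) and by 0.77 ± 0.09 under miR-Exo (adjusted p = 9.53e-06), whereas Rb1 fell. Rbl2, which encodes p130, typical of resting cells, had values of -0.13 (adjusted p = 0.218) and -0.10 (adjusted p = 0.344) in the same order. E2f8, an E2F that represses, rose by 1.46 ± 0.13 and 1.31 ± 0.12, and Tfdp2, a DP partner, by 0.94 ± 0.15 and 1.18 ± 0.15. The single gene that fell was the repressor E2f6, by 0.85 ± 0.07 under NPPC-Exo (adjusted p = 6.69e-07) and by 0.48 ± 0.07 under miR-Exo (adjusted p = 1.11e-04). With library size alone the latter E2f6 value was -0.18 (adjusted p = 0.0537). The activator E2f3 had a value of -0.25 ± 0.15 under NPPC-Exo (adjusted p = 0.194) and rose by 0.60 ± 0.15 under miR-Exo (adjusted p = 0.00406). Between the kinds of exosome, E2f4 was lower with miR-Exo, at -0.38 ± 0.08 on the log2 scale without erastin (adjusted p = 0.00913) and -0.55 ± 0.08 in its presence (adjusted p = 2.17e-04). Rbl2 was higher with miR-Exo once erastin was present, by 0.29 ± 0.08 (adjusted p = 0.0129), a call lost without replicate 1 of erastin with NPPC-Exo (0.22, adjusted p = 0.084) or replicate 2 of erastin with miR-Exo (0.21, adjusted p = 0.0933).

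Of 15 genes that activate, stabilise or degrade G1 cyclins and their kinases, 4 rose and 6 fell with erastin under NPPC-Exo, and 4 rose and 7 fell under miR-Exo, with medians of -0.126 and -0.112. Of all genes tested, 21.5% rose and 22.1% fell under NPPC-Exo, and 24.7% rose and 24.4% fell under miR-Exo. The falls depend on the scaling: the same edgeR test with library size alone called 7 higher and 0 lower under NPPC-Exo and 9 higher and 0 lower under miR-Exo. Of all calls with that scaling, 77.8% and 76.4% were higher, in the same order. Cdc25a, the phosphatase that frees Cdk2 from inhibitory phosphate, rose by 0.71 ± 0.07 under NPPC-Exo (adjusted p = 1.59e-06) and by 1.06 ± 0.07 under miR-Exo (adjusted p = 2.96e-08). Cks1b, a small partner of these kinases, rose by 0.72 ± 0.09 and 0.52 ± 0.09. Skp2, the F-box protein that marks p27 for destruction, rose by 0.48 ± 0.08 under miR-Exo (adjusted p = 3.21e-04) and had a value of 0.19 ± 0.08 under NPPC-Exo (adjusted p = 0.082). Skp1, which links Skp2 to the ubiquitin ligase, fell by 0.47 ± 0.08 under NPPC-Exo (adjusted p = 1.81e-04) and by 0.21 ± 0.07 under miR-Exo (adjusted p = 0.032). With library size alone these Skp1 values were -0.19 (adjusted p = 0.0569) and 0.09 (adjusted p = 0.324). The Skp1 fall under miR-Exo was also lost without replicate 2 or 3 of miR-Exo or replicate 1 or 3 of erastin with miR-Exo (adjusted p from 0.0619 to 0.121). Cdc37, the chaperone that loads Cdk4 and Cdk6, rose by 0.36 ± 0.10 under NPPC-Exo (adjusted p = 0.00755) and fell by 0.33 ± 0.10 under miR-Exo (adjusted p = 0.0116), the latter value being -0.03 (adjusted p = 0.83) with library size alone. Among erastin libraries Cdc37 was lower under miR-Exo than under NPPC-Exo by a log2 fold change of -0.69 ± 0.10 (adjusted p = 1.62e-04). Ccnh, the cyclin of the kinase that activates Cdk2 and Cdk4, was also lower there, at -0.51 ± 0.08 (adjusted p = 4.35e-04). Between the kinds of exosome without erastin, edgeR's quasi-likelihood test called 0 of the 15, against a background of 10.7% of all genes tested. At an unadjusted p under 0.05, for which no share of all genes is given here, 1 was higher and 1 lower. DESeq2 and limma also called 0.

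**Figure D4:**
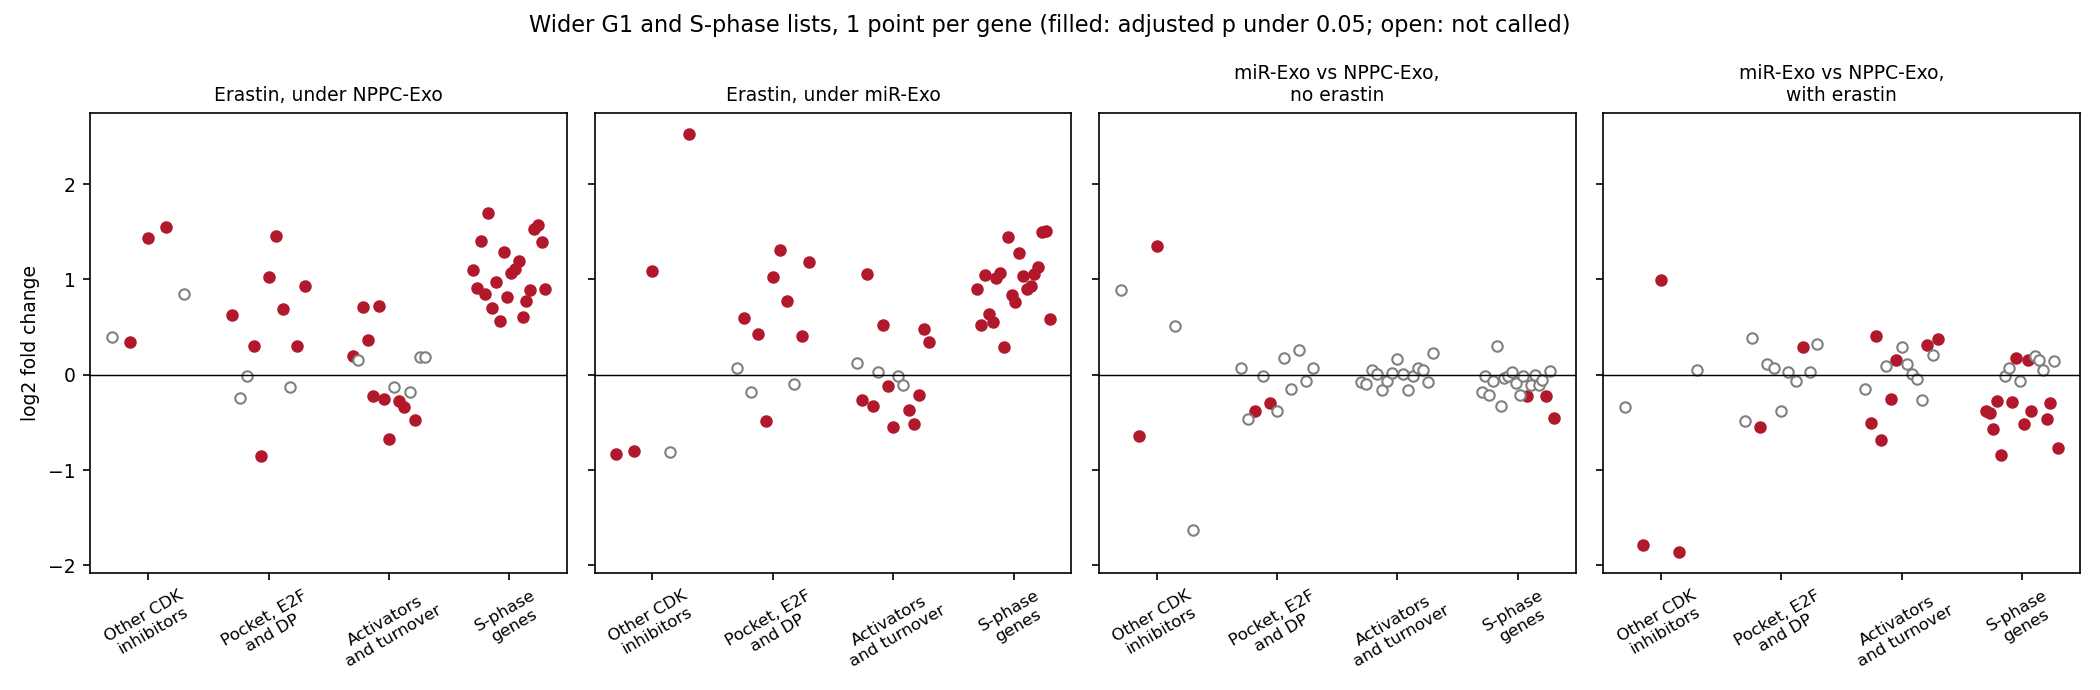
Log2 fold changes (y axis) of genes in the 4 wider lists, 1 point per tested gene, in the 4 comparisons of groups, filled where the adjusted p was under 0.05. All 20 S-phase genes lie above 0 and are filled in both erastin panels, while most that are filled lie below 0 for miR-Exo against NPPC-Exo with erastin.

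All 20 S-phase genes that E2F is known to drive rose with erastin under both kinds of exosome by edgeR, DESeq2 and limma. The medians were 1.02 under NPPC-Exo and 0.97 under miR-Exo. Of all genes tested, edgeR called 21.5% higher under NPPC-Exo and 24.7% under miR-Exo. Of all limma calls, 77.6% and 76.3% were higher, in the same order. Tk1, which salvages thymidine, was at 33.9, 34.4 and 38.7 CPM with NPPC-Exo and at 107, 104 and 107 CPM once erastin was added, a rise of 1.57 ± 0.07 (adjusted p = 5.99e-10). Rrm2, a subunit of ribonucleotide reductase, rose by 1.53 ± 0.06 under NPPC-Exo and by 1.13 ± 0.06 under miR-Exo (adjusted p = 5.62e-10 and 7.68e-09). Of the replicative helicase genes, Mcm3 rose by 1.29 ± 0.06 under NPPC-Exo and 1.44 ± 0.06 under miR-Exo, Mcm6 by 1.11 ± 0.05 and 1.28 ± 0.05, and Mcm7 by 1.20 ± 0.05 and 1.04 ± 0.05. The smallest helicase rises, named after the values were seen, were those of Mcm2 at 0.56 ± 0.06 and 0.29 ± 0.06. With erastin present, 11 of the 20 by edgeR were lower and 2 higher under miR-Exo than under NPPC-Exo, against a background of 15.8% lower and 15.6% higher, while the E cyclins and Cdk2 were higher there. Limma on FPKM called 9 lower and 5 higher, and edgeR with library size alone 9 and 6. Of all calls by these fits in this comparison, 67.9% and 68.6% were higher, in the same order. Uhrf1, which keeps DNA methylation in place through replication, was lower with miR-Exo, at -0.45 ± 0.06 on the log2 scale without erastin (adjusted p = 7.3e-04) and -0.77 ± 0.06 in its presence (adjusted p = 2.27e-06). Cdt1, the licensing factor of replication origins, was at 29.4, 30.5 and 33.8 CPM with erastin and NPPC-Exo and at 17.5, 13.4 and 21.3 CPM with erastin and miR-Exo, with no overlap. The difference was -0.84 ± 0.18 (adjusted p = 0.0028). Without erastin 3 of the 20 were lower with miR-Exo and 0 higher by edgeR, against a background of 6.52% lower and 4.15% higher. The counts were 7 and 0 at an unadjusted p under 0.05, 4 and 0 by DESeq2, and 1 and 0 by limma. Of all DESeq2 and limma calls in this comparison, 41.7% and 67.3% were higher. No share of all genes at an unadjusted p is given here. The 3 by edgeR were Uhrf1, Mcm7 at -0.22 ± 0.05 (adjusted p = 0.0173) and Tk1 at -0.22 ± 0.07 (adjusted p = 0.0452). The Tk1 call was lost on leaving out any library but replicate 1 of NPPC-Exo (adjusted p from 0.0547 to 0.156), and the Mcm7 call without replicate 2 or 3 of NPPC-Exo or replicate 1 or 3 of miR-Exo (adjusted p from 0.0511 to 0.0795). With library size alone the Mcm7 and Tk1 values were both -0.14 and missed the threshold (adjusted p = 0.119 and 0.200).

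For the members with the largest log2 fold change in a comparison of groups, whether it passed the test or not, the genes most like them in pattern were found by Pearson's r of log2 CPM across the 12 libraries among 10162 genes of mean CPM at least 5, as a description. These libraries share their groups, so a gene that only follows the groups also scores high. Ccne2 was most like Slc11a2 (r = 0.994), which carries iron across membranes, Cflar (0.991), a brake on caspase 8, and Slc25a37 (0.991), which brings iron into mitochondria. Ccnd2 was most like Ust (0.994), Pdgfrb (0.993), the PDGF receptor beta gene, and Itgbl1 (0.993). Ccnd3 was most like Nfatc4 (0.985), Slc39a1 (0.976) and Hid1 (0.974). Cdk6 was most like Igdcc4 (0.986), Tf (0.972), which encodes transferrin, and Txndc11 (0.966).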

How the data were processed

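Total RNA of the cells was sequenced from libraries that mark strand with dUTP, per the labels' protocols. The authors deposited 1 table of whole-number counts per gene with FPKM beside them for 12 libraries in 4 groups of 3. StringTie and the mRatBN7.2 build are named in the submitters' processing notes, with no version given for the former, with the aligner, counter and filters not given in the sources used here. Of the deposited counts from 1 to 20, 57.3% were even, so halved counts were an alternative. Coordinates of the table are not printed, since its build is uncertain.

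Counts were fitted with edgeR 4.0.16 in R 4.3.3 (filterByExpr, trimmed means of M values with factors from 0.877 to 1.15, quasi-likelihood test on the group means of all 12 libraries), with Benjamini-Hochberg adjustment over 15650 genes in each comparison. The SE of a log2 fold change is its size over the square root of the F statistic. Shares used FPKM and exact permutation tests in SciPy 1.17.1. DESeq2 1.42.0 and limma 3.58.1, the latter on log2(FPKM + 1) and log2(FPKM + 0.1), were alternatives beside other scaling, filters, only the groups compared, a replicate block and leaving out each library. The fit was also run on simulated counts, with no outcome given here, and no result above rests on that run.

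All 3 same-numbered pairs of libraries had deviations that correlated over 0.1 in 1 comparison only, miR-Exo against NPPC-Exo without erastin, at 0.422, 0.226 and 0.14. Differently numbered libraries there reached 0.219, for replicate 3 of NPPC-Exo with replicate 2 of miR-Exo, so these values do not settle whether numbers mark pairs. The labels do not say what a number stands for. Blocked values stand beside results there where they change a call.

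The 10 genes and the wider lists of cell cycle genes were chosen with earlier results of these data known. Named are all 10, Cdkn1a, Cdkn1b, Cdkn1c, Rbl1, Rbl2, and for each wider list and comparison up to 3 called genes of smallest adjusted p, of which not all are discussed. E2f1 and Cdkn2d, also listed, are not analysed here.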

Additional observations from a re-analysis of the deposited data

Results flagged for a closer look

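The erastin effect differed between the kinds of exosome, by the interaction term of edgeR's quasi-likelihood fit at an adjusted p under 0.05, for 16 named genes, against 12.8% of all genes tested. They are 6 of the 10 G1 genes and 10 genes of the wider lists, and the latter were named because they were called, so their number is no result. Each value below is the log2 effect of erastin under miR-Exo minus that under NPPC-Exo. Of the 10 G1 genes, the erastin effect was more positive under miR-Exo for Ccne1 (0.68), Ccne2 (0.68) and Cdk2 (0.59), and less positive or more negative for Ccnd1 (-0.45), Cdk6 (-0.78) and Ccnd3 (-0.79). Among inhibitors of cyclin-dependent kinases the difference was -1.15 for Cdkn1b and -2.37 for Cdkn2a. It was 0.85 for the activator E2f3, 0.37 for the repressor E2f6 and 0.35 for the phosphatase gene Cdc25a. It was -0.41 for Ccnh and -0.69 for Cdc37, which act on the kinases. Among S-phase genes it was -1.15 for Cdt1, -0.40 for Rrm2 and -0.32 for Uhrf1. All 16 are differences of differences over the same 12 libraries, so they share every library. In the fit with the replicate block the calls of Ccnd3 (adjusted p = 0.0513), Cdc25a (0.0515) and Ccnh (0.0539) were lost. Those of Ccnd3, Cdkn2a, E2f6, Cdc25a, Ccnh and Uhrf1 lost their call on leaving out any of 6 or more single libraries, and that of E2f3 without replicate 2 or 3 of erastin with NPPC-Exo or replicate 1 of erastin with miR-Exo. The levels of Cdkn2a were at most 3.11 CPM, so its value rests on few counts.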

How the results depend on the processing

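The erastin calls of Ccnd1, Ccnd2, Ccne1, Ccne2, Cdk2, Cdk4 and Cdkn2c, the calls of the 10 genes between the kinds of exosome with erastin, and the interactions of Ccnd1, Ccne1, Ccne2, Cdk2 and Cdk6 kept direction and side of the threshold under every alternative run. Between the kinds of exosome without erastin, 2 of the 10 genes were called, against 4 with library size alone, with DESeq2 and with limma at either pseudocount, and 1 to 4 on leaving out a library. There 7 genes of the wider lists were called, 4 in a fit of only those groups and 4 to 9 on leaving out a library, and 1669 genes in all, 970 to 1854 on leaving out a library. For the interaction, 2006 genes were called in all (1205 to 2419 on leaving out a library) and 10 of the wider lists (4 to 13). The share of Ccnd2 among D cyclins differed by -1.56 points between the kinds of exosome without erastin, and by 0.677 points with CPM in place of FPKM.

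Scaling by library size alone moved the median log2 fold change of all genes from 0.0175 to 0.3 and from 0.0287 to 0.334 for erastin under NPPC-Exo and miR-Exo, and the share of calls that were higher from 49.3% to 77.8% and from 50.4% to 76.4%. For miR-Exo against NPPC-Exo the median moved from 0 to 0.0793 without erastin and from 0.011 to 0.115 with it, and the share from 38.9% to 68.7% and from 49.7% to 68.6%. Of values past the threshold with either scaling, 5 changed sign with library size alone, and so did 9 that passed with neither, among the latter E2f3, Rbl2 and Ccnd3 with erastin under NPPC-Exo. The values that follow are with library size alone, limma at a pseudocount of 1 and limma at 0.1, in that order. With erastin under miR-Exo they were 0.0286, 0.0181 and 0.0190 for Rb1, 0.0926, 0.0879 and 0.0882 for Skp1, and 0.0412, 0.0329 and 0.0342 for Ccnh. For E2f4 with erastin under NPPC-Exo they were 0.27, 0.24 and 0.26. The calls of Rb1, Skp1 and Ccnh were falls with scaling for composition. With library size alone the values of Rb1 and Skp1 did not pass. E2f4 passed with library size alone and not with scaling for composition. The fifth was Rbl2 with erastin under miR-Exo, at 0.21 with library size alone. The replicate block called 3 of the 10 genes in place of 2 between the kinds of exosome without erastin, 1560 genes in all there, and 5 in place of 6 for the interaction; of all 18 same-numbered pairs, 4 correlated over 0.1, and the correlations ran from -0.241 to 0.422. With 3 libraries a group, no permutation test of a share can pass 0.05, and erastin and exosome effects on cell number are not separable from those on RNA per cell. The cause of these shifts was not tested.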
